A study of Mus musculus with 36 samples.

Results

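The gene set described here is 42 genes of the G2 phase and mitosis, taken by symbol from the 24411 genes of the deposited expression tables. All 42 were present in both tables. The samples were cultures of stem and progenitor cells (HSPCs) from mouse bone marrow, either Taf1 knockout (KO) or control, which the labels also call WT. Each of the 12 groups held 3 total RNA libraries. Taf1 encodes the largest subunit of the general transcription factor TFIID, and the study asked how its loss affects differentiation in culture. Knockout and control cells were sampled at day 0 and after 3 days with SCF and IL-3 to expand myeloid cells. From there each culture was followed to days 5 and 7 in a macrophage course, with GM-CSF and M-CSF and then M-CSF alone, or in a granulocyte course, with SCF, IL-3 and G-CSF and then G-CSF alone. All groups shared medium with horse serum, and every cytokine was given at the same concentration. How the conditional allele was deleted, and which exons of Taf1 are lost, is not given in the labels. Nor do they say whether the 3 libraries of a group came from separate mice, and p-values rest on the spread between libraries alone, which may be technical. Values are TPM, the share of a library's transcripts that a gene takes, and log2 differences are on the log2(TPM + 1) scale with their standard errors.

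In G2 phase, cyclin B accumulates and binds Cdk1, and the activated kinase drives the cell into mitosis, with Plk1 and the Aurora kinases building the spindle. The spindle checkpoint holds the anaphase-promoting complex (APC/C) in check until every kinetochore is attached. Cdc20 and the ubiquitin-conjugating enzyme Ube2c then help it to destroy cyclin B and securin. The genes are transcribed late in the cell cycle under the MuvB complex with B-Myb and FoxM1, often through a promoter motif called the CHR together with upstream CCAAT boxes. In bone marrow they mark dividing progenitors, and their transcripts decline as granulocytes and macrophages stop dividing.

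A promoter window of 250 bases before to 50 after the start of transcription was held by 35 of the 42 genes in the RefSeq annotation (build GRCm38.p6). The 5 windows below belong to the gene with the largest falls in the knockout (Ube2c), the pair that forms the mitotic kinase (Cdk1 and Ccnb1) and 2 genes whose pattern departed from the others (Ndc80 and Pttg1). They lie at chr2:164769679-164769978 (plus strand) for Ube2c, chr10:69352863-69353162 (minus strand) for Cdk1, chr13:100786437-100786736 (minus strand) for Ccnb1, chr17:71526808-71527107 (minus strand) for Ndc80 and chr11:43425932-43426231 (minus strand) for Pttg1. Each is printed 5′ to 3′ on the strand of its gene, and the capitals mark TTTGAA, the core letters of the CHR, and CCAAT, each on either strand.
Ube2c: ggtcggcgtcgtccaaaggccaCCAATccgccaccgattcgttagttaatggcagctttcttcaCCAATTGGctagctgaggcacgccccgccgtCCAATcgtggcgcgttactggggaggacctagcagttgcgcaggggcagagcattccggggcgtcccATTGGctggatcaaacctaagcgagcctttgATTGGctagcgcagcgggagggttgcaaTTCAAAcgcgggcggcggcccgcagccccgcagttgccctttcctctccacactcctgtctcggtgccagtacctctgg
Cdk1: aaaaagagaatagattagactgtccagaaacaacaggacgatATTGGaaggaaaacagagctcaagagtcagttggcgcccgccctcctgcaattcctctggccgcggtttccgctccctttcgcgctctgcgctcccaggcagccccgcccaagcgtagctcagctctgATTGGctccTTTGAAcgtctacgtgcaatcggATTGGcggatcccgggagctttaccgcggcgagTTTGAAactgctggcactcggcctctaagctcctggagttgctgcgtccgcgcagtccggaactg
Ccnb1: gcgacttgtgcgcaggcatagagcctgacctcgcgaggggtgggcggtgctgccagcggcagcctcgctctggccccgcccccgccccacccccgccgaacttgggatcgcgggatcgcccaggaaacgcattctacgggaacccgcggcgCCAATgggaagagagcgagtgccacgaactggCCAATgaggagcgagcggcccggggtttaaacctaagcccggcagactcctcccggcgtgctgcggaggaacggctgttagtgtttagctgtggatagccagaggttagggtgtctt
Ndc80: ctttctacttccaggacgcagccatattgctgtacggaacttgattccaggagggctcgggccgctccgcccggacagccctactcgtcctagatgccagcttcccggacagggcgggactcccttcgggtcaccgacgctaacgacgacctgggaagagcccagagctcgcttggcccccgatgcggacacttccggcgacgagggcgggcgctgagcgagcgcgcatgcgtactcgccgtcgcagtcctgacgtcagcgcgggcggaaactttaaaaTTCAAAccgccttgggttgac
Pttg1: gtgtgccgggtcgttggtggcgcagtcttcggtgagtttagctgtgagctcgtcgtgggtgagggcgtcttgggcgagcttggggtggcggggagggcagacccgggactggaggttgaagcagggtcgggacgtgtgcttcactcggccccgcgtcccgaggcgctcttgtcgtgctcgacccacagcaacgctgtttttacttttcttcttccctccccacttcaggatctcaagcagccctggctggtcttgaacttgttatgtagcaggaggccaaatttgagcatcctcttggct
The Ube2c window held 1 TTTGAA and 6 CCAAT matches, that of Cdk1 2 and 3, and that of Ccnb1 0 and 2. In the Ndc80 window 1 TTTGAA and 0 CCAAT were found, and the Pttg1 window held 0 of both. However, the Pttg1 window lies wholly inside the gene as GENCODE annotates it (chr11:43420250-43426251). It therefore leaves out the bases upstream of that gene start. The windows of Kif2c, Cdca8, Cdca3 and Kif4 also lie inside their GENCODE genes. Over the 35 genes, TTTGAA was found in 26 (74.3%), against 20.2% of the 27025 genes with a window of the same length. CCAAT was found in 27 (77.1%, against 41.1%), both motifs in 23 (65.7%, against 7.97%) and the TATA box letters TATAAA in 1, Kif2c (2.86%, against 15.7%). Searches covered both strands, and matches of TTTGAA and CCAAT shared a letter in Cdca8 alone of the 35. A match describes the letters of a window and was not tested as a site.

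Across the 36 libraries, 10289 to 11226 genes reached 1 TPM, and sequencing depth is unknown. Taf1 was at 8.5, 8.98 and 9.06 TPM in knockout libraries at day 0, against 14.54, 14.11 and 13.56 TPM in controls. It lay below every control library at each later stage except day 3, where knockout libraries held 8.66, 10.29 and 9.06 TPM and control libraries 9.62, 10.9 and 11.45 TPM. TPM sums to a fixed total, and S100a8 with S100a9 took 0.109% to 23.4% of it, histone genes 3.35% to 17% and the structural RNAs Rpph1 and Rmrp 2.29% to 16.1%. Progenitor markers were present at day 0, with Kit at mean levels of 51.2 TPM in knockout and 53.4 TPM in control cells and Cd34 at 239 and 206 TPM. At day 7 both courses carried RNA of both lineages: Csf1r, the M-CSF receptor, averaged 236 TPM in knockout and 204 TPM in control cells of the macrophage course, and 131 and 258 TPM in those of the granulocyte course. S100a8, a neutrophil gene, averaged 18400 TPM in knockout and 27900 TPM in control cells at day 7 of the macrophage course, and 81500 and 73500 TPM in the granulocyte course. The T cell gene Cd3e was listed at 0 in every group mean except that of knockout cells at day 0 (0.01 TPM).

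In knockout cells the mitotic and G2 transcripts took a larger share of the RNA than in controls at day 3 and a smaller share at days 5 and 7 of both courses. The summed level of the 42 genes was 2540 ± 178 TPM in knockout and 2360 ± 311 TPM in control cells at day 0 (SD, n = 3 each), with overlapping libraries. At day 3 the sum was 2650, 3000 and 2850 TPM in knockout libraries, against 1850, 2560 and 2590 TPM in control libraries. Control replicate 1 of day 3 stood apart below the other libraries of its group, and the lowest knockout library lay just above the highest control. At day 5 the sum was 2240 ± 43.6 TPM in knockout and 2820 ± 75.1 TPM in control cells of the macrophage course, and 2250 ± 45.8 and 2830 ± 210 TPM in those of the granulocyte course. At day 7 it was 2020 ± 104 TPM in knockout and 2760 ± 37.9 TPM in control cells of the macrophage course. In the granulocyte course it was 1620, 1280 and 1230 TPM in knockout libraries and 2060, 2040 and 1880 TPM in control libraries at day 7. No knockout library reached a control library at days 5 and 7 of either course. In bulk RNA, fewer dividing cells and less of these transcripts per cell cannot be told apart. A TPM also falls when other genes take more of the total. At day 5 S100a8 with S100a9 averaged 21.5% in knockout and 11.2% in control cells of the macrophage course. With structural RNA, histone, S100a8 and S100a9 genes left out, the median log2 differences were -0.18 and -0.15 at day 5 of the macrophage and granulocyte courses. At day 7 they were -0.60 and -0.64. The part of such genes was not tested.

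**Figure D1:**
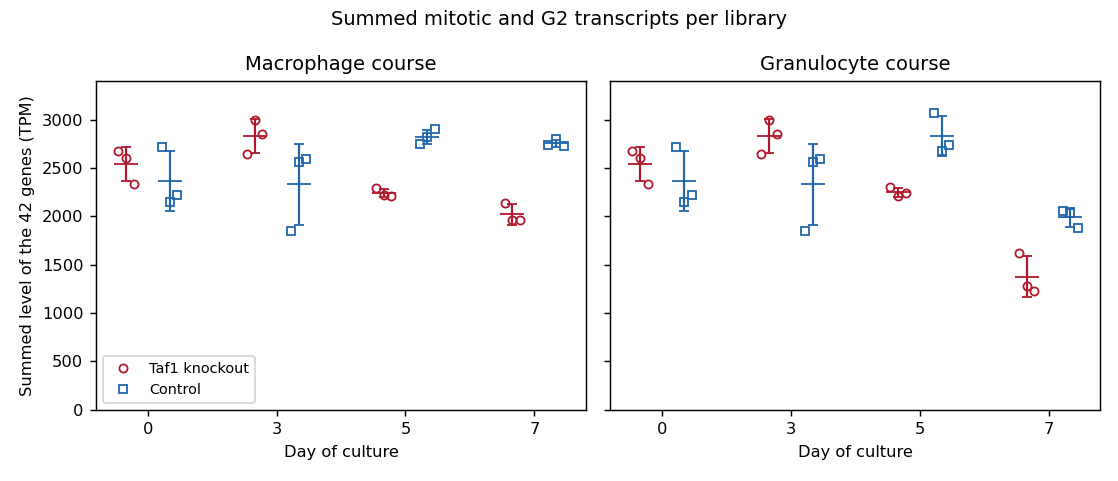
Summed TPM of the 42 genes in each library by day of culture, for the macrophage course (left) and the granulocyte course (right), with knockout libraries as circles left of control libraries as squares and bars for the mean and SD of 3 libraries; the day 0 and day 3 libraries are drawn in both panels. At day 5 knockout cells held mean sums of 2240 and 2250 TPM and control cells 2820 and 2830 TPM.

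Gene by gene, 4 of the 42 genes were higher in the knockout at day 0 and 0 lower (limma, Benjamini-Hochberg adjusted p under 0.05), where 13.1% and 10.2% of the 11953 genes tested passed in those directions. At an unadjusted p under 0.05 the counts were 7 and 0, and in 7 genes every knockout library lay above every control library (23.2% of all genes). Of the 4, the largest rise was in Kif20a, a kinesin of the late spindle (0.54 ± 0.14, adjusted p = 0.00928). The others were Bub1, a checkpoint kinase (0.43 ± 0.13), Birc5, which encodes survivin (0.40 ± 0.12), and Nusap1, a microtubule-binding protein (0.38 ± 0.13). The median of the 42 genes was 0.12, beside 0.06 over all genes. The count was 9 without control replicate 1, and 1 without control replicate 2, without control replicate 3 or without knockout replicate 1.

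At day 3 the set moved upward: 21 of 42 genes rose and 1 fell in the knockout, where 26.5% of all genes rose and 26.7% fell. The median difference was 0.31, beside -0.01 over all genes, and 22 genes had every knockout library above every control library (31.1% of all genes). Median-of-ratios scaling left 18 higher (26.8% of all genes) and 1 lower. The rise rested in part on control replicate 1, the library with the lowest sum: without it 9 genes passed as higher and 3 as lower, and without knockout replicate 2 there were 13 higher. Values without control replicate 1 are given below for the day 3 rises of Ccnb1, Plk1 and Top2a alone. Other day 3 rises named below may likewise not pass without it. By role, 5 of the 6 cyclin and Cdk1 genes and 5 of the 6 mitotic kinase and passenger genes rose. Of the genes for motors and microtubule-associated proteins of the spindle 2 of 6 rose, and of the midzone genes 1 of 6.

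At days 5 and 7 the direction was the opposite, though the day 5 counts depended on scaling. In the macrophage course 23 of 42 genes fell and 0 rose at day 5 (0 with an unadjusted p under 0.05), while 37.9% of all genes fell and 5.11% rose. The day 5 median was -0.35 and that of all genes -0.23, and after median-of-ratios scaling, which moved the median of all genes to -0.02, 5 of the 42 were lower (20% of all genes) and 2 higher (18.6%). Both scaled counts were, as shares of the 42 genes, below those of all genes. At day 7 of the same course 30 genes fell and 0 rose (0 with an unadjusted p under 0.05), against 12.5% and 27.4% of all genes, with a median of -0.44 beside 0.12 over all genes. Scaling raised that count to 39 lower (21.6% of all genes). Every knockout library lay below every control library in 33 genes at day 5 and 37 at day 7, where 46% and 17.8% of all genes did.

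The granulocyte course showed the same order. At day 5, 16 of 42 genes fell and 0 rose (0 with an unadjusted p under 0.05), against 22.8% and 9.2% of the 11905 genes tested, with a median of -0.32 beside -0.09 over all genes. The count was 7 after scaling (22% of all genes), 6 without knockout replicate 2, 8 without control replicate 1, 9 without knockout replicate 1 or 3, and 9 with no filter on low values. The scaled count, as a share of the 42 genes, lay below that of all genes. At day 7, 35 genes fell and 0 rose (0 with an unadjusted p under 0.05), against 12% and 32.1% of all genes, with a median of -0.55 beside 0.17. After scaling 39 were lower (24% of all genes), and without knockout replicate 3 there were 23. Without control replicate 3 or without knockout replicate 1, 1 gene passed as higher. Knockout and control libraries did not overlap, with the knockout lower, in 31 genes at day 5 and 35 at day 7 (31% and 15.7% of all genes). Of the genes that fell at day 7, 28 fell in both courses, which was 93.3% of the 30 in the macrophage course and 80% of the 35 in the granulocyte course. The courses were divided from common day 3 cultures. The matching overlap over all genes was not examined, so this overlap cannot be read as particular to the 42 genes. A total of 13 genes fell at all 4 late stages, and Kif20a, Cdc25c, Pttg1 and Foxm1 at none. Of all genes 5.28% fell at all 4 and 56% at none. After scaling 5 of the 42 were lower at all 4 stages (Ube2c, Mad2l1, Ect2, Ndc80 and Hmmr), against 7.65% of all genes. Scaled, 31 were lower at 2 stages, and Kif20a and Pttg1 at none.

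**Figure D2:**
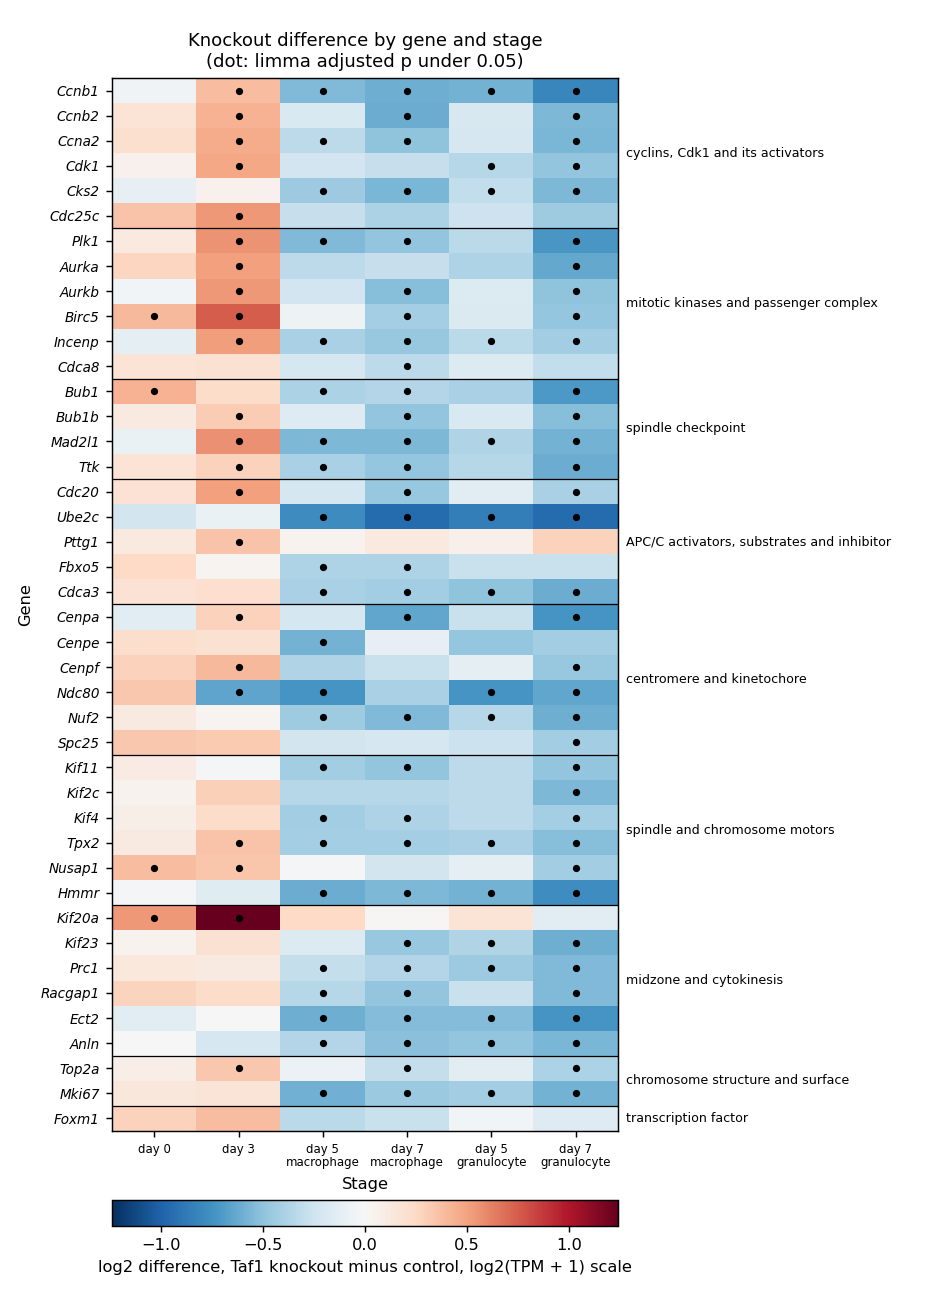
Log2 difference, Taf1 knockout minus control, of each of the 42 genes (rows, grouped by role) at each of the 6 stages (columns); red is higher in the knockout, blue lower, and a dot marks a limma adjusted p under 0.05. The day 3 column is mostly red, with 21 genes higher, and the day 7 columns are mostly blue, with 30 and 35 genes lower.

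Markers of other cell types moved with genotype at the same stages, and their part in the results was not tested. At day 3, 11 of 12 macrophage markers fell, their summed level ranging over 243 to 432 TPM in knockout and 1290 to 1680 TPM in control libraries. At the same stage 7 of 7 megakaryocyte markers fell (280 to 616 TPM in knockout, 1370 to 2370 TPM in control). There too 6 of 7 eosinophil markers fell (804 to 992 TPM in knockout, 2650 to 3560 TPM in control), as did 5 of 6 erythroid markers tested (18.6 to 23.4 TPM in knockout, 65.8 to 102 TPM in control). At day 5, 11 of 12 macrophage markers fell in each course. Of the eosinophil markers 5 of 7 fell in the macrophage course and 5 of the 6 tested in the granulocyte course. The summed eosinophil markers held 734 to 1100 TPM in knockout and 1370 to 2380 TPM in control libraries of the macrophage course. In the granulocyte course they held 871 to 1400 TPM in knockout and 1780 to 2740 TPM in control libraries. S100a8 and S100a9, neutrophil genes, took 17.8% to 23.4% of the TPM in knockout and 4.93% to 14.5% in control libraries of the macrophage course at day 5. In the granulocyte course they took 17.7% to 21.6% in knockout and 5.49% to 14.4% in control libraries. Control replicate 1 was the lowest in both courses. Of the 12 neutrophil markers, 3 rose and 3 fell at day 5 of the macrophage course. With granulocyte cytokines 1 rose and 3 fell at that day. Of 8 progenitor markers 5 rose there and 0 fell (174 to 214 TPM in knockout, 100 to 115 TPM in control). Camp, a granule protein gene, averaged 117 TPM in knockout and 1550 TPM in control cells of the macrophage course at day 5. At day 7 of the macrophage course, 4 of 12 macrophage markers rose and 1 fell (5440 to 5960 TPM in knockout, 3390 to 4160 TPM in control). There 2 of 12 neutrophil markers rose and 5 fell (28300 to 42400 TPM in knockout, 36600 to 73500 TPM in control). Of 8 progenitor markers 4 rose there and 0 fell (54.3 to 64.4 TPM in knockout, 25.3 to 40.5 TPM in control). At day 7 of the granulocyte course, 6 of 8 progenitor markers rose (132 to 166 TPM in knockout, 59.1 to 68.1 TPM in control). Likewise 5 of 8 mast cell and basophil markers rose (2030 to 6500 TPM in knockout, 1710 to 2230 TPM in control). There 9 of 12 macrophage markers fell and 1 rose (2240 to 3040 TPM in knockout, 2810 to 3850 TPM in control), and 5 of 7 megakaryocyte markers rose. Of the neutrophil markers 2 rose and 5 fell there, and without S100a8 and S100a9 they summed to 5350 to 7360 TPM in knockout and 7790 to 13600 TPM in control libraries. The erythroid marker Slc4a1 averaged at most 0.263 TPM in every group, and the summed level of the 8 lymphoid markers was at most 39.3 TPM in every library.

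Among the cyclins, Ccnb1, the B-type cyclin that activates Cdk1 at mitotic entry, measured 87.8, 89.2 and 66.8 TPM in knockout and 100.4, 70.1 and 80.2 TPM in control libraries at day 0. At day 3 it held 91.1, 107 and 107 TPM in knockout libraries against 57.9, 90.8 and 89.5 TPM in controls. The groups overlapped at day 0 only. In the macrophage course it was at 85.2, 87.2 and 85.5 TPM in knockout libraries against 116, 132 and 132 TPM in controls at day 5, and at 75.7, 74.6 and 74.7 TPM in knockout libraries against 108, 114 and 124 TPM in controls at day 7. The granulocyte course gave 87.2, 85 and 82.7 TPM in knockout libraries against 126, 127 and 134 TPM in controls at day 5 and 53.5, 41.5 and 40.5 TPM in knockout libraries against 83.5, 78.4 and 76.7 TPM in controls at day 7. Knockout libraries lay above all controls at day 3 and below all of them at each later stage. The rise at day 3 was 0.38 ± 0.15 (limma adjusted p = 0.0341) and 0.17 (adjusted p = 0.291) without control replicate 1. The falls were 0.55 ± 0.15, 0.61 ± 0.15, 0.59 ± 0.15 and 0.81 ± 0.15 at days 5 and 7 of the macrophage and then the granulocyte course (limma adjusted p = 0.00506, 0.00268, 0.00579 and 0.000313). The value at day 5 of the macrophage course did not pass after median-of-ratios scaling (-0.30, adjusted p = 0.0902). An annotated pseudogene copy, Ccnb1-ps, could share its reads.

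Cdk1, the catalytic partner of cyclins A and B, was at 74.2, 72.6 and 62.9 TPM in knockout libraries against 78.9, 62.5 and 61.5 TPM in controls at day 0. At day 3 it was at 80.8, 89.1 and 84.8 TPM in knockout libraries against 44.9, 69.5 and 71.1 TPM in controls. These early groups overlapped at day 0 and were apart at day 3. Its levels in the macrophage course were 63.6, 65.2 and 63.9 TPM in knockout libraries against 70.5, 80.9 and 77.3 TPM in controls at day 5 and 68.4, 67.4 and 67 TPM in knockout libraries against 79.8, 82.5 and 86 TPM in controls at day 7. With granulocyte cytokines they were 64.8, 61.2 and 61 TPM in knockout libraries against 75.4, 79.5 and 84.4 TPM in controls at day 5 and 47.5, 40.6 and 38.9 TPM in knockout libraries against 61.7, 58.6 and 58.9 TPM in controls at day 7. The groups were apart at every stage after day 0, with the knockout higher at day 3 and lower afterwards. The rise at day 3 (0.48 ± 0.13) and the falls in the granulocyte course (0.35 ± 0.13 and 0.49 ± 0.13) passed, and the macrophage course values of -0.24 ± 0.13 and -0.29 ± 0.13 did not (limma adjusted p = 0.128 and 0.0756). After scaling the value at day 7 of the macrophage course passed (-0.44, adjusted p = 0.00365) and that at day 5 of the granulocyte course did not (-0.26, adjusted p = 0.148).

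Ccna2, the A-type cyclin of S and G2 phase, held 122, 115 and 107 TPM in knockout libraries against 107, 97.4 and 95 TPM in controls at day 0. By day 3 it held 115, 135 and 121 TPM in knockout libraries against 72.9, 98.4 and 98.7 TPM in controls. Knockout libraries lay above the controls at both days. The macrophage course had 104, 102 and 100.1 TPM in knockout libraries against 119, 127 and 138 TPM in controls at day 5 and 100.4, 88.3 and 89.8 TPM in knockout libraries against 134, 134 and 127 TPM in controls at day 7. The granulocyte course had 109, 105 and 107 TPM in knockout libraries against 127, 121 and 125 TPM in controls at day 5 and 69.8, 54.5 and 52.9 TPM in knockout libraries against 91.1, 89.3 and 81.5 TPM in controls at day 7. No stage had overlapping groups, and the knockout was higher at days 0 and 3 and lower afterwards. It rose by 0.46 ± 0.10 at day 3 (limma adjusted p = 0.0006) and fell by 0.50 ± 0.10 and 0.57 ± 0.11 at day 7 of the macrophage and granulocyte courses. Ccnb2, the second B-type cyclin, rose by 0.43 ± 0.14 at day 3 and fell by 0.62 ± 0.14 and 0.56 ± 0.14 at day 7. Cks2, a small Cdk-binding subunit with the second highest mean TPM of the set over all libraries (157 TPM), stood at 0.05 ± 0.12 at day 3 and fell at all 4 late stages, by 0.57 ± 0.12 and 0.56 ± 0.11 at day 7. Its day 5 falls did not pass after scaling (-0.20, adjusted p = 0.244 and -0.22, adjusted p = 0.206). Cdc25c, the phosphatase that activates Cdk1, rose by 0.54 ± 0.15 at day 3 and passed at no late stage. After scaling it was lower at day 7 of the macrophage course (-0.53, adjusted p = 0.0055) and of the granulocyte course (-0.62, adjusted p = 0.0118).

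**Figure D3:**
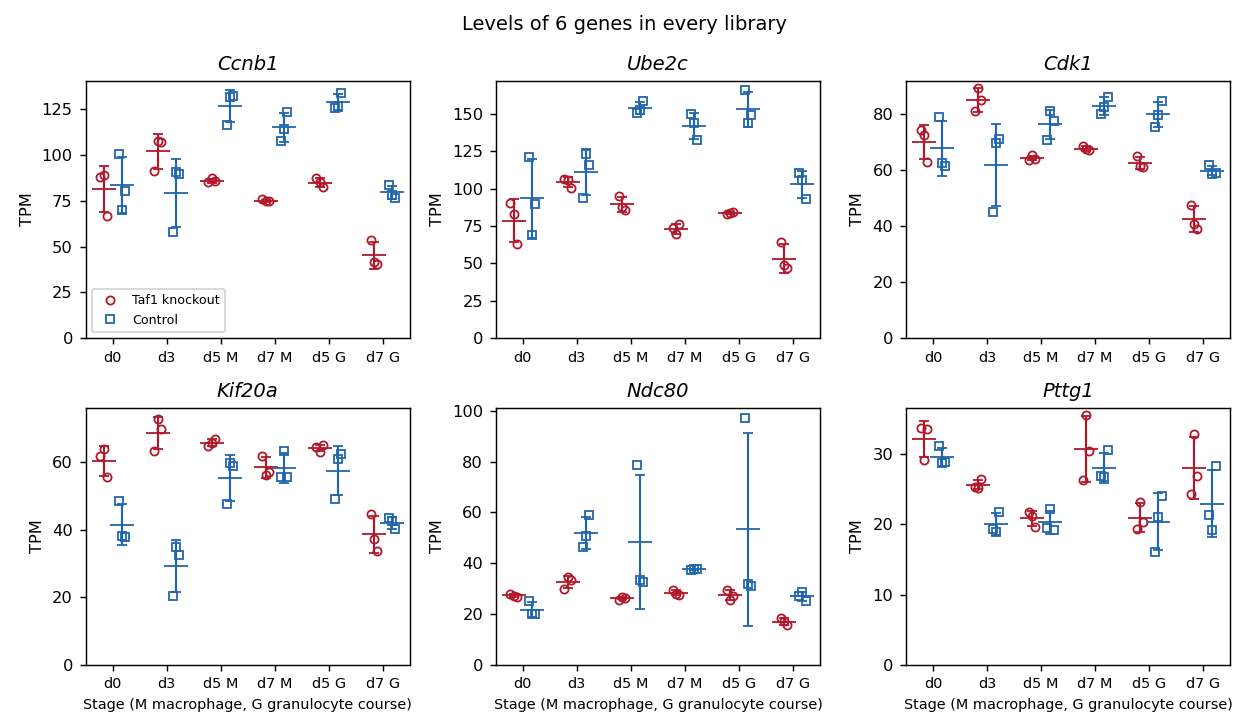
TPM of Ccnb1, Ube2c, Cdk1, Kif20a, Ndc80 and Pttg1 in every library at the 6 stages (d, day; M, macrophage course; G, granulocyte course), knockout as circles left of control as squares, with bars for the mean and SD of 3 libraries. Ube2c in the knockout lies below every control library at all 4 late stages, and 1 control library of Ndc80 lies far above the others at day 5 of each course.

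Of the mitotic kinases, Plk1, which promotes entry into mitosis and spindle assembly, measured 34.5, 38.7 and 28.7 TPM in knockout libraries against 42.8, 22.8 and 30.4 TPM in controls at day 0. At day 3 it measured 35.8, 40.0 and 40.4 TPM in knockout libraries against 19.5, 30.9 and 28.8 TPM in controls. Control replicate 1 was the lowest library of day 3. In the macrophage course the levels were 29.8, 26.2 and 27.8 TPM in knockout libraries against 32.6, 45.4 and 47.3 TPM in controls at day 5 and 24.4, 22.6 and 24.9 TPM in knockout libraries against 34.7, 36.3 and 31.6 TPM in controls at day 7. Granulocyte course levels were 30.8, 31.1 and 34.3 TPM in knockout libraries against 34.3, 47 and 41.5 TPM in controls at day 5 and 25.3, 14.8 and 14.3 TPM in knockout libraries against 31.2, 30.3 and 27 TPM in controls at day 7. Knockout replicate 1 was the highest of its group at the last stage, and the groups overlapped at day 0 and at day 5 of this course and were apart elsewhere. Plk1 rose by 0.56 ± 0.18 at day 3 (limma adjusted p = 0.0141, and 0.115 without control replicate 1). It fell by 0.55 ± 0.18 and 0.49 ± 0.18 in the macrophage course and by 0.72 ± 0.21 at day 7 of the granulocyte course. The fall at day 5 of the macrophage course did not pass after scaling (-0.30, adjusted p = 0.217).

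Aurka, the Aurora kinase of spindle poles, was at 65.8, 70.7 and 51.5 TPM in knockout libraries against 65.9, 41.3 and 49.4 TPM in controls at day 0. Day 3 gave 78.6, 88.2 and 85.2 TPM in knockout libraries against 43.2, 67.8 and 69.2 TPM in controls. The groups overlapped at day 0. The macrophage course gave 72.5, 62.9 and 65.2 TPM in knockout libraries against 76.5, 87.7 and 87.1 TPM in controls at day 5 and 58.2, 50.6 and 52 TPM in knockout libraries against 66, 68.2 and 63 TPM in controls at day 7. The granulocyte course gave 68.5, 62.9 and 59 TPM in knockout libraries against 81.4, 84.3 and 82.8 TPM in controls at day 5 and 46.6, 28.8 and 29.9 TPM in knockout libraries against 58.4, 54.4 and 48.4 TPM in controls at day 7. All knockout libraries lay above the controls at day 3 and below them later. The rise of 0.51 ± 0.16 at day 3 and the fall of 0.63 ± 0.19 at day 7 of the granulocyte course passed, and the value of -0.29 ± 0.16 at day 7 of the macrophage course did not (limma adjusted p = 0.155). After scaling it did (-0.45, adjusted p = 0.0304).

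Aurkb, the kinase of the chromosomal passenger complex, held 89, 91.7 and 74.7 TPM in knockout libraries against 102, 78.1 and 81.9 TPM in controls at day 0. By day 3 it held 75.6, 81.8 and 79 TPM in knockout libraries against 40.1, 61.9 and 62.3 TPM in controls. The day 3 groups were far apart. Its macrophage course levels were 57.5, 52.5 and 50.1 TPM in knockout libraries against 55.6, 68.7 and 66.3 TPM in controls at day 5 and 51.9, 43.7 and 42.9 TPM in knockout libraries against 66.4, 70.6 and 63.2 TPM in controls at day 7. Its granulocyte course levels were 58.6, 55.5 and 52.7 TPM in knockout libraries against 55.9, 66.5 and 66.5 TPM in controls at day 5 and 43.6, 32.3 and 31.6 TPM in knockout libraries against 52, 51.1 and 49 TPM in controls at day 7. Groups also overlapped at day 0 and at day 5 of both courses and were apart at day 7. The day 3 rise was 0.54 ± 0.14 and the day 7 falls 0.53 ± 0.14 and 0.50 ± 0.15 in the macrophage and granulocyte courses. Of its partners in that complex, Incenp rose by 0.52 ± 0.13 and Birc5 by 0.75 ± 0.12 (limma adjusted p = 2.94e-05) at day 3, while Cdca8, which encodes borealin, stood at 0.19 ± 0.11 and did not pass. Birc5 measured 164, 180.2 and 174 TPM in knockout libraries against 75.4, 119.7 and 119 TPM in controls at day 3, which left a wide gap between the groups.

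Among the spindle checkpoint genes, Bub1b, whose product BubR1 inhibits Cdc20, was at 74.4, 65.2 and 65 TPM in knockout libraries against 69.4, 57.7 and 62.9 TPM in controls at day 0. At day 3 its values were 62.7, 68 and 68.4 TPM in knockout libraries against 43.9, 57.4 and 59.5 TPM in controls. Overlap between the groups was seen at day 0 and not at day 3. It stood at 56.1, 52.2 and 52.6 TPM in knockout libraries against 61.3, 59 and 60.2 TPM in controls at day 5 and 50.7, 40.1 and 39.2 TPM in knockout libraries against 60.3, 64 and 57.8 TPM in controls at day 7 of the macrophage course. It stood at 57.2, 51.7 and 50.2 TPM in knockout libraries against 67.9, 56.4 and 58 TPM in controls at day 5 and 39.6, 27.9 and 27.9 TPM in knockout libraries against 46.5, 46.3 and 44.2 TPM in controls at day 7 of the granulocyte course. The groups were apart at day 3, with the knockout higher, and at day 5 of the macrophage course and day 7 of both courses, with the knockout lower. It rose by 0.31 ± 0.11 at day 3 and fell by 0.49 ± 0.11 and 0.53 ± 0.13 at day 7. Mad2l1, the checkpoint protein that binds Cdc20, measured 50.4, 63.4 and 56.9 TPM in knockout libraries against 30.6, 42.6 and 41.8 TPM in controls at day 3, a rise of 0.57 ± 0.10 (limma adjusted p = 0.00011), and fell at all 4 late stages by 0.37 to 0.59 on the log2 scale. All 4 checkpoint genes fell at day 7 in both courses, Bub1 by 0.36 ± 0.13 and 0.71 ± 0.16 and the kinase Ttk by 0.48 ± 0.12 and 0.62 ± 0.14 in the macrophage and granulocyte courses.

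The APC/C group held both the lowest and the highest difference of the set at day 7, in Ube2c and Pttg1. Cdc20, the mitotic activator of the APC/C, measured 129, 131 and 109.8 TPM in knockout libraries against 126, 94.5 and 107 TPM in controls at day 0. On day 3 it measured 96.7, 109 and 108 TPM in knockout libraries against 62.3, 80.1 and 78.5 TPM in controls. The knockout lay above all controls at day 3. In the macrophage course it measured 80.0, 77.6 and 73 TPM in knockout libraries against 92.4, 89.3 and 86.3 TPM in controls at day 5 and 67.6, 53.2 and 48.8 TPM in knockout libraries against 79.2, 84.4 and 70.6 TPM in controls at day 7. Granulocyte cultures had 86.2, 88.2 and 85.6 TPM in knockout libraries against 93.1, 97.1 and 96.1 TPM in controls at day 5 and 61.5, 43.2 and 44 TPM in knockout libraries against 70.5, 63.9 and 60.1 TPM in controls at day 7. The last stage had overlapping groups, since knockout replicate 1 exceeded control replicate 3. Cdc20 rose by 0.51 ± 0.12 at day 3 and fell by 0.47 ± 0.12 and 0.40 ± 0.13 at day 7 of the macrophage and granulocyte courses. Elovl1 overlaps Cdc20 on the opposite strand, and whether the counting used strand is not stated, so their reads may not have been told apart.

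Ube2c, the ubiquitin-conjugating enzyme that starts chains on APC/C substrates, had the lowest knockout difference of the 42 genes at all 4 late stages. It was at 90.4, 83 and 62.7 TPM in knockout libraries against 121, 69.2 and 90.0 TPM in controls at day 0 and 107, 106 and 101 TPM in knockout libraries against 93.8, 124 and 116 TPM in controls at day 3, where the groups overlapped and the differences of -0.23 ± 0.15 and -0.08 ± 0.15 did not pass. In the macrophage course it was at 95.3, 87.7 and 85.9 TPM in knockout libraries against 151, 153 and 159 TPM in controls at day 5 and 73.6, 69.5 and 76.5 TPM in knockout libraries against 150.04, 144 and 133 TPM in controls at day 7. The granulocyte course had 83.3, 83.5 and 84.7 TPM in knockout libraries against 166, 144 and 149.65 TPM in controls at day 5 and 64.2, 48.9 and 46.8 TPM in knockout libraries against 111, 106 and 93 TPM in controls at day 7. Wide gaps separated the groups at each late stage, with the knockout lower. The falls were 0.78 ± 0.15 and 0.95 ± 0.15 in the macrophage course (limma adjusted p = 0.000361 and 5.96e-05) with 0.86 ± 0.16 and 0.95 ± 0.16 in granulocyte cultures (limma adjusted p = 0.000384 and 0.000113). All 4 passed after median-of-ratios scaling too. Tnnc2, a muscle gene, overlaps Ube2c on the opposite strand.

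Pttg1, which encodes securin, the inhibitor of separase that the APC/C destroys, passed at none of the late stages, though after scaling it was higher at day 5 of the macrophage course (0.28, adjusted p = 0.0161). It measured 26.3, 35.7 and 30.4 TPM in knockout libraries against 26.9, 26.7 and 30.6 TPM in controls at day 7 of the macrophage course and 24.3, 33 and 26.9 TPM in knockout libraries against 21.4, 19.2 and 28.3 TPM in controls at day 7 of the granulocyte course, with overlapping groups and values of 0.12 ± 0.10 and 0.29 ± 0.14. At day 3 it measured 25.4, 25.2 and 26.5 TPM in knockout libraries against 19.3, 18.9 and 21.8 TPM in controls, without overlap, a rise of 0.35 ± 0.10. Cdca3, a trigger of mitotic entry, fell at all 4 late stages, by 0.62 ± 0.13 at day 7 of the granulocyte course, and at 3 of them after scaling, without day 5 of the macrophage course (-0.15, adjusted p = 0.261). Fbxo5, which encodes the APC/C inhibitor Emi1, fell by 0.38 ± 0.13 and 0.38 ± 0.13 in the macrophage course and did not pass in the granulocyte course. After scaling the day 5 fall was lost (-0.13, adjusted p = 0.285), and Fbxo5 passed as lower at day 7 of the granulocyte course (-0.49, adjusted p = 0.00575).

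At the centromere, Cenpa, the histone H3 variant that marks it, was at 71.3, 72.4 and 67.2 TPM in knockout libraries against 85, 71.7 and 75 TPM in controls at day 0. Values of day 3 were 68.8, 80.4 and 76 TPM in knockout libraries against 52.3, 66.4 and 66.1 TPM in controls. The groups parted between these days. The macrophage course gave 67.8, 58.1 and 60.0 TPM in knockout libraries against 61.7, 77 and 79.8 TPM in controls at day 5 and 52.9, 49.1 and 47.3 TPM in knockout libraries against 82, 79.8 and 72.7 TPM in controls at day 7. The granulocyte course gave 62, 58.5 and 57.9 TPM in knockout libraries against 65.8, 75.8 and 75.8 TPM in controls at day 5 and 44.6, 34.4 and 33.3 TPM in knockout libraries against 65.7, 61.1 and 59.6 TPM in controls at day 7. Knockout libraries were all higher at day 3 and all lower at day 7 of both courses and at day 5 of the granulocyte course, and the groups overlapped at day 0 and at day 5 of the macrophage course. Cenpa rose by 0.29 ± 0.11 at day 3 and fell by 0.64 ± 0.11 and 0.73 ± 0.11 at day 7 (limma adjusted p = 0.000105 and 2.98e-05). The rise did not pass after scaling (0.24, adjusted p = 0.0739).

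Ndc80, the microtubule-binding subunit of the outer kinetochore, was the 1 gene of the set that fell at day 3. It measured 27.8, 27.2 and 26.8 TPM in knockout libraries against 25.1, 19.9 and 19.8 TPM in controls at day 0, where the knockout lay above the controls, and 30.0, 34.5 and 33.3 TPM in knockout libraries against 46.4, 50.6 and 58.9 TPM in controls at day 3, where it lay below them. The fall at day 3 was 0.65 ± 0.20 (limma adjusted p = 0.0103), and the day 0 value of 0.33 ± 0.20 did not pass. It held 25.6, 26.7 and 26.3 TPM in knockout libraries against 78.7, 33.2 and 32.6 TPM in controls at day 5 of the macrophage course and 29.3, 25.6 and 27.1 TPM in knockout libraries against 97.2, 31.6 and 31.1 TPM in controls at day 5 of the granulocyte course. Control replicate 1 stood far above the other controls in both. The day 5 fall of 0.73 ± 0.20 in the macrophage course was -0.32 (adjusted p = 0.0156) without that library, and the fall of 0.73 ± 0.26 in the granulocyte course was -0.19 and did not pass (adjusted p = 0.21). At day 7 the levels were 29.4, 27.9 and 27.6 TPM in knockout libraries against 37.4, 37.6 and 37.7 TPM in controls in the macrophage course and 18.3, 17 and 15.4 TPM in knockout libraries against 26.9, 28.7 and 24.9 TPM in controls in the granulocyte course, apart in both. The day 7 values were -0.40 ± 0.20, which did not pass, and -0.64 ± 0.26, which did, in the macrophage and granulocyte courses, and the first passed after scaling (-0.55, adjusted p = 0.0236). Nuf2, its partner in the same complex, stood at 0.03 ± 0.12 at day 3 and fell at all 4 late stages, of which the day 5 falls did not pass after scaling (-0.19, adjusted p = 0.101 and -0.26, adjusted p = 0.0682). Spc25, another subunit, fell at day 7 of the granulocyte course (0.43 ± 0.14) and passed at none of the other 5 stages. After scaling it was also higher at day 3 (0.28, adjusted p = 0.0388) and lower at day 7 of the macrophage course (-0.36, adjusted p = 0.0145). Cenpe and Cenpf, large kinetochore proteins, passed at 1 late stage each, Cenpe at day 5 of the macrophage course (0.59 ± 0.16) and Cenpf at day 7 of the granulocyte course (0.47 ± 0.17). After scaling Cenpe was lower at day 7 of the granulocyte course (-0.63, adjusted p = 0.0064) and did not pass at day 5 of the macrophage course (-0.35, adjusted p = 0.0771). Cenpf was then lower at day 7 of the macrophage course too (-0.42, adjusted p = 0.0379).

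Among the spindle genes, Kif11, the kinesin that pushes spindle poles apart, was at 67.8, 69.1 and 55.7 TPM in knockout libraries against 70.4, 53.7 and 55.8 TPM in controls at day 0. Day 3 levels were 65, 77.9 and 73.7 TPM in knockout libraries against 59.4, 77.5 and 83.4 TPM in controls. Neither day separated the groups. Its macrophage course levels were 54.3, 58 and 56.1 TPM in knockout libraries against 87, 70.3 and 72.2 TPM in controls at day 5 and 47.3, 42 and 40.8 TPM in knockout libraries against 63.3, 65.3 and 55.3 TPM in controls at day 7. Granulocyte cultures had 60.2, 59.3 and 61.9 TPM in knockout libraries against 104, 64 and 65.7 TPM in controls at day 5 and 39.6, 34.1 and 32.7 TPM in knockout libraries against 51.9, 54.7 and 44.3 TPM in controls at day 7. At each later stage the knockout lay below all controls. It fell by 0.43 ± 0.13 and 0.49 ± 0.13 in the macrophage course and by 0.49 ± 0.16 at day 7 of the granulocyte course, and the day 5 fall did not pass after scaling (-0.18, adjusted p = 0.23). Hmmr, a microtubule-associated protein of the spindle, had 20.2, 16 and 14.4 TPM in knockout libraries against 29.8, 32 and 26.3 TPM in controls at day 7 of the granulocyte course, a fall of 0.77 ± 0.14, and fell at all 4 late stages. All 6 genes for motors and microtubule-associated proteins of the spindle fell at day 7 of the granulocyte course and 4 at day 7 of the macrophage course. Among them Tpx2, the activator of Aurka, fell by 0.53 ± 0.13 in the granulocyte and 0.42 ± 0.12 in the macrophage course. Nusap1 (-0.23 ± 0.13) and Kif2c (-0.35 ± 0.15) did not pass in the macrophage course. Both passed there after scaling (-0.38, adjusted p = 0.0234 for Nusap1, and -0.51, adjusted p = 0.0105 for Kif2c).

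Kif20a, a kinesin of the central spindle needed for cytokinesis, had the highest difference of the set at days 0 and 3. It measured 61.8, 63.8 and 55.5 TPM in knockout libraries against 48.5, 38.1 and 37.9 TPM in controls at day 0 and 63.4, 72.8 and 69.9 TPM in knockout libraries against 20.4, 34.8 and 32.4 TPM in controls at day 3, apart at both. The day 3 rise was 1.24 ± 0.14 (limma adjusted p = 6.53e-07). It measured 64.7, 65.6 and 66.8 TPM in knockout libraries against 47.5, 59.6 and 59 TPM in controls at day 5 and 62, 56.3 and 57.2 TPM in knockout libraries against 55.6, 63.4 and 55.6 TPM in controls at day 7 of the macrophage course. Granulocyte cultures had 64.5, 63.1 and 65.1 TPM in knockout libraries against 49.1, 60.9 and 62.3 TPM in controls at day 5 and 44.7, 37.2 and 33.8 TPM in knockout libraries against 43.4, 42.4 and 40.1 TPM in controls at day 7. The knockout stayed above all controls at day 5 of both courses without passing (0.25 ± 0.14 and 0.17 ± 0.15), and the groups overlapped at day 7. After scaling the day 5 value of the macrophage course was 0.50 and passed (adjusted p = 0.00646). Cdc23, an APC/C subunit gene that overlaps Kif20a on the opposite strand, rose by 0.62 ± 0.10 at day 3, and with strand use in counting not stated their reads may not have been told apart.

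Each of the other genes of the midzone and cytokinesis fell at 3 or 4 of the late stages, but after scaling Ect2 was the one that fell at more than 2. Ect2, the exchange factor that activates RhoA at the division site, measured 16.7, 15.5 and 15.9 TPM in knockout libraries against 23.4, 22.8 and 24.9 TPM in controls at day 7 of the macrophage course and 11.6, 8.43 and 9.14 TPM in knockout libraries against 17.1, 17.4 and 15.7 TPM in controls at day 7 of the granulocyte course, without overlap. It fell at all 4 late stages, by 0.61 ± 0.12 and 0.54 ± 0.12 in the macrophage course and by 0.54 ± 0.14 and 0.73 ± 0.14 in the granulocyte course. Anln, an actin-binding scaffold of the cleavage furrow, and Prc1, which bundles midzone microtubules, also fell at all 4. Their day 5 falls did not pass after scaling, at -0.11 and -0.40 for Anln and -0.05 and -0.36 for Prc1 in the macrophage and granulocyte courses (adjusted p = 0.463, 0.0715, 0.756 and 0.0534). Racgap1 fell at 3 and Kif23 at 3, which together form centralspindlin, with falls of 0.55 ± 0.13 and 0.61 ± 0.13 at day 7 of the granulocyte course. Scaling removed the day 5 fall of Racgap1 in the macrophage course (-0.10, adjusted p = 0.399) and that of Kif23 in the granulocyte course (-0.28, adjusted p = 0.0923).

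Top2a, the topoisomerase that untangles chromosomes and the most abundant of the set (206 TPM on average over all libraries), was at 237, 217 and 196 TPM in knockout libraries against 227, 191 and 198 TPM in controls at day 0. At day 3 the levels were 264, 293 and 265 TPM in knockout libraries against 166, 246 and 254 TPM in controls. Control replicate 1 was again the lowest library of day 3. The macrophage course had 213, 216 and 212 TPM in knockout libraries against 224, 220.0 and 226 TPM in controls at day 5 and 174, 167 and 163 TPM in knockout libraries against 210.1, 211 and 201 TPM in controls at day 7. The granulocyte course had 218, 208 and 206 TPM in knockout libraries against 274, 209.7 and 218 TPM in controls at day 5 and 141, 126 and 113 TPM in knockout libraries against 171, 177 and 151 TPM in controls at day 7. Groups overlapped at day 0 and at day 5 of the granulocyte course and were apart elsewhere, with the knockout higher at day 3 and lower later. It rose by 0.33 ± 0.11 at day 3 and fell by 0.30 ± 0.11 and 0.39 ± 0.14 at day 7 of the macrophage and granulocyte courses. The rise was 0.13 (adjusted p = 0.201) without control replicate 1 of day 3.

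Mki67, the proliferation antigen that coats mitotic chromosomes, measured 82.8, 86.6 and 74.4 TPM in knockout libraries against 93.8, 59.2 and 71.4 TPM in controls at day 0. For day 3 the values were 92.3, 94.5 and 97.8 TPM in knockout libraries against 68, 91.2 and 98.3 TPM in controls. The groups overlapped at both days. The macrophage course had 70.6, 76.7 and 89.8 TPM in knockout libraries against 89.8, 122 and 156 TPM in controls at day 5 and 68.1, 67.3 and 78.3 TPM in knockout libraries against 91.1, 102 and 102 TPM in controls at day 7. The granulocyte course had 74.4, 76.5 and 103 TPM in knockout libraries against 128, 105 and 108 TPM in controls at day 5 and 53.3, 48.1 and 47 TPM in knockout libraries against 78.8, 78.8 and 66.9 TPM in controls at day 7. Mki67 fell at all 4 late stages, by 0.60 ± 0.17, 0.46 ± 0.17, 0.43 ± 0.15 and 0.59 ± 0.15 in the order given, and at day 5 of the macrophage course its groups overlapped. Neither day 5 fall passed after scaling (-0.35, adjusted p = 0.118 in the macrophage and -0.34, adjusted p = 0.0827 in the granulocyte course).

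Foxm1, the transcription factor of the late cell cycle, was expressed at low levels, 9.09, 14.3 and 8.63 TPM in knockout libraries against 10.3, 7.76 and 7.18 TPM in controls at day 0. Its day 3 levels were 7.59, 9.22 and 9.91 TPM in knockout libraries against 4.85, 7.63 and 7.63 TPM in controls. Both days had overlapping groups. Its macrophage course levels were 8.58, 8.12 and 9.42 TPM in knockout libraries against 9.51, 10.4 and 14.2 TPM in controls at day 5 and 9.70, 9.79 and 10.4 TPM in knockout libraries against 11.9, 12.6 and 12.3 TPM in controls at day 7. Those of the granulocyte course were 8.24, 8.44 and 11.3 TPM in knockout libraries against 10.02, 10.2 and 8.31 TPM in controls at day 5 and 7.81, 6.01 and 6.14 TPM in knockout libraries against 7.41, 7.57 and 7.53 TPM in controls at day 7. The groups overlapped except at days 5 and 7 of the macrophage course, where the knockout was lower. It passed at none of the 6 stages, the smallest adjusted p being 0.0773 at day 3 (0.38 ± 0.18). After scaling it was lower at day 7 of the macrophage course (-0.42, adjusted p = 0.0474).

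The change of the knockout difference between stages was tested as an interaction of genotype and day. Between days 0 and 3 it rose in 5 genes and fell in 1, against 15% and 17.3% of all genes: Kif20a (0.70 ± 0.20), Mad2l1 (0.65 ± 0.14), Incenp (0.63 ± 0.19), Aurkb (0.58 ± 0.20) and Cenpa (0.42 ± 0.15) rose, and Ndc80 fell by 0.98 ± 0.29. As shares of the 42 genes, both counts lay below those of all genes. Without control replicate 1 of day 3 the counts were 2 and 3, and the first was 3 without control replicate 1 of day 0, knockout replicate 3 of day 0 or knockout replicate 2 or 3 of day 3. Between days 3 and 7 it fell in 36 of 42 genes of the macrophage course and rose in 0 (0 with an unadjusted p under 0.05), against 13.4% and 21.8% of all genes, with a median of -0.66 beside 0.09 over all genes. In the granulocyte course it fell in 35 and rose in 0 (0 with an unadjusted p under 0.05), against 11.4% and 22.3%, with a median of -0.84 beside 0.14. Since both tests use the same day 3 libraries, they were not set against each other. Kif20a had the lowest value in both, -1.23 ± 0.20 and -1.37 ± 0.21 (limma adjusted p = 0.000118 and 6.26e-05), and Ndc80 the highest, 0.25 ± 0.29 and 0.01 ± 0.36, in the macrophage and granulocyte courses. Without control replicate 1 of day 3 the macrophage course count was 27 and the granulocyte course count 32.

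**Figure D4:**
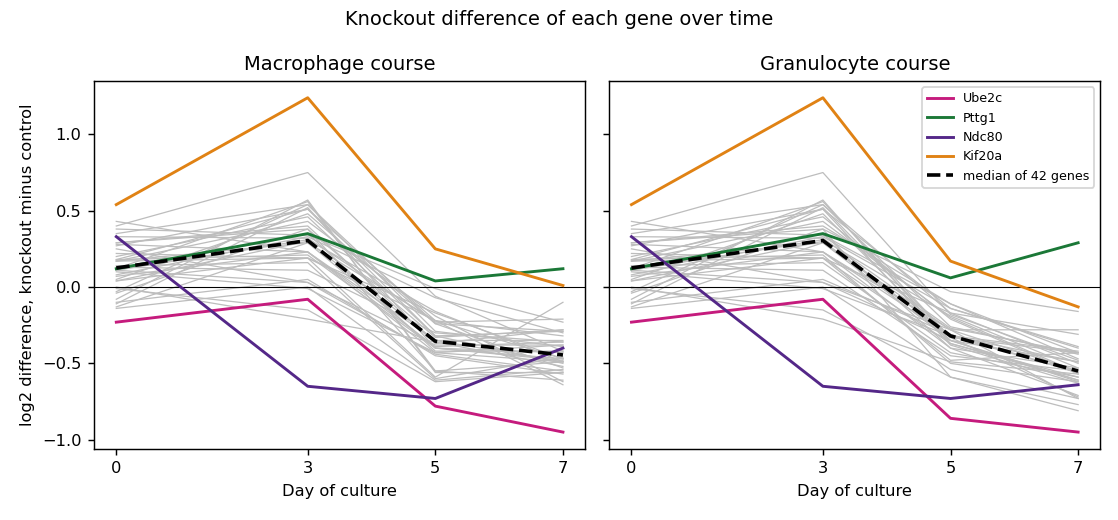
Log2 difference, knockout minus control, of each of the 42 genes (lines) by day of culture in the macrophage course (left) and the granulocyte course (right), with the median as a dashed line and 4 genes in colour. The median is 0.12 at day 0 and 0.31 at day 3 in both panels, and -0.44 and -0.55 at day 7.

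Followed over time within each genotype, the genes had their highest mean levels mostly at days 0 and 3 in knockout cells. In controls these lay mostly at days 5 and 7 of the macrophage course and at day 5 of the granulocyte course. From day 0 to day 3, 12 genes rose and 1 fell in the knockout (22.8% and 35.9% of all genes), while 9 rose and 9 fell in controls (33.3% and 39.6%). The first count was 5 without knockout replicate 3 of day 0 and 7 without knockout replicate 2 of day 3, and 14 rose in controls without their day 3 replicate 1. In controls Ndc80 rose most, by 1.23 ± 0.20, and the highest values among the spindle checkpoint and midzone genes were 0.80 and 0.74. The largest falls in controls were those of Aurkb by 0.68 ± 0.14 and Mad2l1 by 0.67 ± 0.10. In the knockout Bub1 rose most (0.60 ± 0.13), and Pttg1 fell by 0.31 ± 0.10. From day 3 to day 7 of the macrophage course, 2 genes rose and 29 fell in the knockout (36.3% and 25.7% of all genes), with 0 or 1 rising when a single knockout library of day 3, or knockout replicate 2 or 3 of day 7, was left out, against 25 and 1 in controls (34.5% and 28.9%), or 14 and 4 in controls without their day 3 replicate 1. Kif23 rose in both genotypes, by 0.37 ± 0.13 in the knockout and 1.02 ± 0.13 in controls, and Cks2 fell in both, by 1.25 ± 0.12 and 0.63 ± 0.12. From day 3 to day 7 of the granulocyte course, 40 of 42 genes fell in the knockout and 0 rose, with 0 at an unadjusted p under 0.05 (28.7% and 27.1% of all genes). In controls 11 fell and 1 rose (35% and 19.7%), or 18 and 1 without their day 3 replicate 1, and 6 or 7 fell without their day 3 replicate 2 or 3 or their day 7 replicate 3. The changes there ran between -1.44 and 0.11 in the knockout and between -0.92 and 0.54 in controls, and the medians over all genes were -0.02 and -0.13. In the knockout Bub1 fell by 1.44 ± 0.16 and Cks2 by 1.30 ± 0.11, and Foxm1 and Pttg1 did not pass. By mean level, 26 of the 42 genes were highest at day 3 in the knockout of the macrophage course and 29 in that of the granulocyte course. In controls 2 were highest at day 3 in each course, and 16 at day 5 and 19 at day 7 of the macrophage course. In controls of the granulocyte course 9 were highest at day 0, 31 at day 5 and 0 at day 7. The days of highest level over all genes were not examined. The day 7 level was the lowest of the 4 days for 41 genes in the knockout of the granulocyte course and for 21 in its controls.

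**Figure D5:**
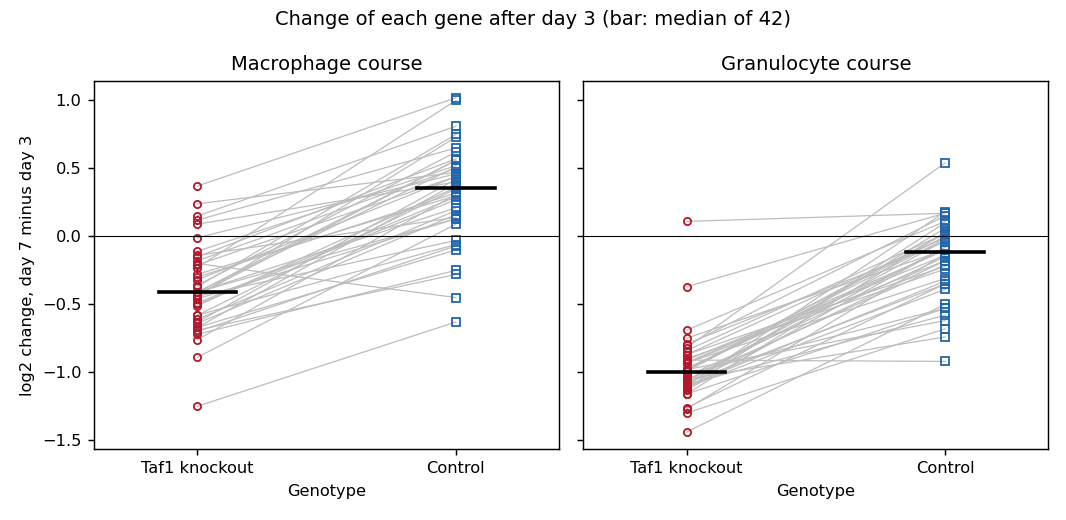
Log2 change from day 3 to day 7 of each of the 42 genes in Taf1 knockout and control cells (points joined by lines), for the macrophage course (left) and the granulocyte course (right), with a bar at the median. In the granulocyte course the points run between -1.44 and 0.11 in the knockout and between -0.92 and 0.54 in controls.

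At day 7, before scaling, the set was higher in the macrophage course than in the granulocyte course in both genotypes. In the knockout 38 of 42 genes were higher and 0 lower, with 0 lower at an unadjusted p under 0.05 (37.5% and 15.4% of the 11269 genes tested). In controls 35 were higher and 0 lower, with 0 lower at an unadjusted p under 0.05 (36.3% and 10.3%). After median-of-ratios scaling 25 were higher in the knockout and 8 in controls (30.5% and 22% of all genes). As a share of the 42 genes, the scaled count of controls lay below that of all genes. The scaled medians were 0.46 in the knockout and 0.29 in controls, beside 0.06 and 0.04 over all genes. Anln and Kif23 led in both, Anln with 1.07 ± 0.14 in the knockout and 1.02 ± 0.14 in controls. The knockout difference at day 7 was not found to differ between the courses: 0 of 42 genes passed in either direction (limma; 1.65% and 1.61% of all genes), 1 had an unadjusted p under 0.05, and 3 passed as higher without knockout replicate 1 of the granulocyte course. The values, macrophage minus granulocyte, ran between -0.16 and 0.35, with -0.16 ± 0.22 for Pttg1 and 0.35 ± 0.16 for Bub1.

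Other genes of the same pathways were examined from lists that share no gene with the 42. Of 58 further mitotic and G2 genes, 32 rose and 4 fell at day 3, where 26.5% and 26.7% of all genes did. At day 7, 2 rose and 22 fell with macrophage cytokines, and 3 rose and 24 fell with granulocyte cytokines. After scaling 39 and 43 of them were lower at day 7 of the macrophage and granulocyte courses, and 1 was higher in each. Of all genes, 27.4% and 32.1% rose and 12.5% and 12% fell at day 7 of these courses before scaling. Dlgap5, a microtubule-associated protein, was at 16.9 ± 0.801 TPM in knockout and 30.2 ± 0.871 TPM in control cells at day 7 of the granulocyte course, a fall of 0.80 ± 0.12, and it fell at day 3 as well (-0.30 ± 0.10). Of 38 S phase genes, which act before G2, 35 rose and 2 fell at day 3, with a median of 0.73 beside 0.31 for the 42 mitotic genes. At day 7, 4 rose and 2 fell with macrophage cytokines, and 3 rose and 5 fell with granulocyte cytokines. After scaling 18 and 14 S phase genes were lower at day 7 of the macrophage and granulocyte courses. Gins1, a subunit of the replicative helicase's GINS complex, was at 17.5 ± 0.678 TPM in knockout and 33.1 ± 2.51 TPM in control cells at day 7 of the macrophage course, and it fell at day 3 (-0.32 ± 0.10) and at day 7 (-0.88 ± 0.10 and -1.06 ± 0.13). In tests across all genes Cdkn1a, the p21 inhibitor of cyclin-dependent kinases, was at 90.2 ± 16.6 TPM in knockout and 34.7 ± 1.24 TPM in control cells at day 7 of the macrophage course. It rose by 1.34 ± 0.18 and 1.77 ± 0.26 at day 7 of the macrophage and granulocyte courses and stood at -0.27 ± 0.18 at day 3 without passing.

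Of the 19 G2 checkpoint and Cdk1 control genes, 5 rose and 3 fell at day 7 with macrophage cytokines, and 6 rose and 5 fell with granulocyte cytokines. Scaling gave 5 higher and 6 lower in the macrophage course at that day. Cdc25b, a phosphatase that activates Cdk1, fell by 0.71 ± 0.10 and 0.72 ± 0.11 in the macrophage and granulocyte courses. Pkmyt1, a kinase that inhibits Cdk1, fell by 0.60 ± 0.12 and 0.45 ± 0.15, and the p53 target Ccng1 rose in both courses, by 1.23 ± 0.13 in the macrophage course. Of the 16 genes of APC/C subunits and its interphase activator, 10 rose and 1 fell at day 3. At day 7, 3 rose and 2 fell with macrophage cytokines and 0 rose and 3 fell with granulocyte cytokines. After scaling 6 and 7 were lower at day 7 of the macrophage and granulocyte courses and 0 higher. Of the 22 genes of the MuvB complexes and E2F factors, 10 rose and 2 fell at day 3, with Mybl2, which encodes B-Myb, at 0.68 ± 0.16, and at day 7 with macrophage cytokines 1 rose and 1 fell. With granulocyte cytokines 5 rose and 1 fell at day 7, and E2f2 fell in both courses, by 0.72 ± 0.17 and 0.42 ± 0.16. After scaling 7 were lower in each course at day 7, with 1 higher in the macrophage and 4 in the granulocyte course. The shares of all genes that were lower at day 7 are those given for the 42 genes above, 12.5% and 12%, or 21.6% and 24% after scaling. The shares that were higher were 27.4% and 32.1%, or 18.7% and 21.1% after scaling. At day 3, 26.5% of all genes rose and 26.7% fell. Before scaling, the rises of the 19 G2 checkpoint and Cdk1 control genes lay near the day 7 shares. So did the day 7 falls of the 38 S phase genes in the granulocyte course and of the 16 APC/C genes in the macrophage course. No list was tested against these shares.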

How the data were processed

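Total RNA of mouse HSPC cultures was sequenced with a kit that keeps strand, per the labels' protocols. The authors deposited TPM values per gene in 2 tables, one per course, and the 12 libraries of days 0 and 3 are the same in both. Per the submitters' processing notes, mm10 was the build, and the tools named are DESeq2 1.38.3 and RSEM (no version named). Whether counting used strand is not stated. Depth cannot be read from TPM and is unknown, and with 3 libraries per group the spread between libraries sets the precision.

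Values were taken as log2(TPM + 1) for genes reaching 1 TPM in at least 3 libraries and compared by limma (3.58.1, under R 4.3.3) in a model holding 1 coefficient for each group. The 24 libraries of a course or the 12 of day 7 shared 1 estimate of spread, which gave 11953, 11905 and 11269 genes tested in the macrophage course, the granulocyte course and the day 7 fit. Days 0 and 3 were read from the macrophage course fit. In 18 comparisons p-values were adjusted over all genes tested (Benjamini-Hochberg, two-sided), with calls at 0.05, and the fit was tested on simulated data. The 14 genes given in every library were chosen by role, and others are up to 4 with the largest rise and fall among those called, those opposite in direction to the median, and up to 4 of each other list by p. The members, the lists (272 of 277 symbols matched) and the genes named were chosen with earlier results of these data known. Promoter windows are RefSeq GRCm38.p6. Alternatives were other filters on low values (none or 5 TPM), other pseudocounts (0.1 and 5 TPM), median-of-ratios scaling, groups fitted alone, the other course's fit, replicate number as a block, each library left out and, added after seeing the data, structural RNA, histone, S100a8 and S100a9 genes left out. Replicate numbers were taken to pair samples where the deviations of all 3 pairs correlated above 0.1, which held for knockout against control at day 5 of the macrophage course (0.183 to 0.301), day 7 against day 3 in knockout cells of that course (0.158 to 0.189) and the day 7 courses in knockout (0.323 to 0.53) and control cells (0.267 to 0.637). Between the day 7 courses, samples of unlike number correlated up to 0.346 in knockout and 0.433 in control cells. The rule thus cannot establish pairing there. Figures were drawn with matplotlib 3.10.9.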

Additional observations from a re-analysis of the deposited data

Results flagged for a closer look

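The knockout difference changed between stages of culture, tested as an interaction of genotype and day with limma. Between days 0 and 3 it rose in 5 of the 42 genes, by 0.70 in Kif20a, 0.65 in Mad2l1, 0.63 in Incenp and 0.58 in Aurkb among them, and fell in 1, Ndc80 (-0.98), against 15% and 17.3% of all genes. As shares of the 42 genes, both counts lay below those of all genes. Without control replicate 1 of day 3 those counts were 2 and 3. Between days 3 and 7 of the macrophage course it fell in 36 genes (13.4% of all genes), or 27 without that library, with the lowest values in Kif20a (-1.23), Birc5 (-1.16), Mad2l1 (-1.12) and Aurkb (-1.07). Between days 3 and 7 of the granulocyte course it fell in 35 genes (11.4% of all genes), or 32 without that library, with the lowest values in Kif20a (-1.37), Plk1 (-1.28), Birc5 (-1.23) and Ccnb1 (-1.19).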

How the results depend on the processing

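For 60 calls of single genes in the 6 comparisons of knockout with control, 858 values were recomputed. Of these, 746 stayed on their side of the threshold, 112 lost the call and 0 changed direction. Of the 60 calls, 28 were lost under at least 1 alternative and 9 under median-of-ratios scaling. Other calls of single genes were not part of this count. Counts of the 42 genes moved by more than 1.5 times as follows. Without a filter on low values, 9 fell in the knockout at day 5 of the granulocyte course. Median-of-ratios scaling gave 2 higher and 5 lower in the knockout at day 5 of the macrophage course and 7 lower at day 5 of the granulocyte course. It gave 0 lower from day 0 to day 3 in the knockout, 1 higher in the knockout and 3 lower in controls from day 3 to day 7 of the macrophage course, and 4 higher and 6 lower in controls of the granulocyte course. Between the day 7 courses it gave 25 higher in the knockout and 8 in controls. With the groups of a comparison fitted alone, 2 fell from day 0 to day 3 in the knockout, and 1 rose in the knockout and 2 fell in controls from day 3 to day 7 of the macrophage course. In the granulocyte course fit, 2 were higher in the knockout at day 0 and 0 fell from day 0 to day 3 in the knockout. With structural RNA, histone, S100a8 and S100a9 genes left out, an alternative chosen after seeing the data, 8 were higher in the knockout at day 0, 2 higher and 5 lower at day 5 of the macrophage course and 3 lower at day 5 of the granulocyte course. It also gave 0 rising in the knockout and 4 falling in controls from day 3 to day 7 of the macrophage course, and 25 higher in the knockout and 22 in controls between the day 7 courses. The cause was not tested in any of these.

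Leaving out single libraries gave 1 to 9 genes higher and 0 to 1 lower in the knockout at day 0, 9 to 25 higher and 1 to 3 lower at day 3, 6 to 15 lower at day 5 and 0 to 1 higher and 23 to 36 lower at day 7 of the granulocyte course. The change of the difference from day 0 to day 3 was called higher in 2 to 7 and lower in 1 to 3. From day 0 to day 3, 5 to 11 rose in the knockout and 7 to 14 in controls. From day 3 to day 7, 0 to 2 rose in the knockout and 14 to 26 rose and 1 to 4 fell in controls of the macrophage course, and 6 to 18 fell in controls of the granulocyte course. The difference between courses at day 7 was called higher in 0 to 3.

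With replicate number as a block, no count moved by more than 1.5 times, and in the comparisons whose samples its check paired, 22 genes fell in the knockout at day 5 of the macrophage course (23 without the block), 28 fell from day 3 to day 7 of that course in the knockout (29 without it), and 39 in the knockout and 38 in controls were higher between the day 7 courses (38 and 35 without it). In the other comparisons the check did not pair samples. There Top2a at day 7 of the macrophage course (-0.30) and Cdk1 at day 5 of the granulocyte course (-0.35) did not pass with the block. With 3 libraries per group and no depth in TPM, small changes of weakly expressed genes could not be detected.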
